A study of Homo sapiens with 11 samples.

Results

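Tamoxifen was compared with no tamoxifen in BT483, an established human breast carcinoma cell line that expresses the estrogen receptor, with 1 RNA-seq library on each side. The pair was taken by its sample titles and makes up 2 of the 11 libraries of the series. Of 59087 annotated genes, 16194 had a mean of at least 1 CPM (counts relative to library size) over the pair and were described, and the other 42893 lay below that level. The treated BT483 cells received 0.5 µM tamoxifen together with a non-targeting control siRNA pool (siCtrl) at 10 nM, and the control BT483 cells received the same siRNA without tamoxifen. All cells were first deprived of estrogen for 48 h, in phenol red-free medium with charcoal-stripped serum. The siRNA cultures of both lines were then treated for 72 h, so that both sides of the BT483 comparison carry the deprivation and the transfection. No vehicle is named for the control cells. The other BT483 libraries received 1 of 2 siRNAs against NLK, a serine/threonine kinase, without tamoxifen. The remaining libraries come from T47D-TamR, a line made tamoxifen-resistant by continuous passage in the drug. In T47D-TamR tamoxifen was set against siCtrl in 1 pair and against DMSO in another, again with 1 library per condition. The last 3 libraries of that line, which enter the fit across all libraries, received 1 of the 2 NLK siRNAs without tamoxifen or 0.5 µM of the p38 inhibitor VX-702. For the DMSO, DMSO with tamoxifen and VX-702 cultures no treatment time is given.

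Tamoxifen competes with estradiol for the ligand pocket of the estrogen receptor, and in breast epithelium the drug-bound receptor recruits corepressors to genes that estradiol activates. Among the genes downstream of the receptor are cyclin D1 and MYC, which drive phosphorylation of the retinoblastoma protein and release of the E2F factors that transcribe the genes of DNA replication. Genes of G2 and mitosis are switched on later in the cycle by the B-MYB, FOXM1 and MuvB proteins, which bind a short promoter element called CHR, and in resting cells the DREAM complex holds the same element silent.

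The tamoxifen library held 25274101 counts and the siCtrl library 16859630, against a range of 14637083 to 26915863 over all libraries. All 10 markers of luminal epithelium were expressed, between 121 and 5721 CPM with tamoxifen and between 153 and 5334 CPM with siCtrl, for sums of 16857 and 16210 CPM. The 4 basal markers summed to 3.02 CPM with tamoxifen and 4.24 CPM with siCtrl. The 6 leukocyte markers summed to 2.05 CPM with tamoxifen and 1.41 CPM with siCtrl, with CD3E at 0 in both, and the 4 endothelial markers to 1.75 CPM with tamoxifen and 1.92 CPM with siCtrl. The 8 fibroblast markers summed to 10.4 CPM with tamoxifen and 13.1 CPM with siCtrl, of which COL1A1 made up 9.51 and 12.1 CPM. Mitochondrially encoded genes took 11.5% of counts with tamoxifen and 10.2% with siCtrl.

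On the scaled counts most transcripts lay near their control level with tamoxifen, and past 2-fold more genes were lower than higher. A gene was counted as 2-fold higher or lower when its ratio of TMM-scaled CPM reached 2-fold and the exact binomial 95% interval of that ratio left out 1. By that rule 301 of 16194 genes (1.86%) were higher and 743 (4.59%) were lower, so that 71.2% of these genes were lower with tamoxifen. At 1.5-fold the counts were 1125 higher (6.95%) and 1582 lower (9.77%). The median log2 ratio over all genes was 0.0049. TMM scaling takes most genes as unchanged, so a median near 0 is built in and a shift shared by most genes would not show. The interval covers counting error only, because PCR reads are not independent molecules and there is no second culture on either side. The low-count genes held most of the 2-fold higher ones: at a mean of at least 5 CPM, 94 genes were higher and 460 lower, a lower share of 83.0%. In the deposited log2(TPM + 1) values of the same genes, 121 were 2-fold higher and 583 lower, a lower share of 82.8%.

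A fit across the 11 libraries gave a test that borrows the spread between libraries from the other pairs. In the quasi-likelihood test of edgeR, with p-values adjusted by the Benjamini-Hochberg method, 336 of 24023 genes (1.4%) were called lower with tamoxifen in BT483 and 21 (0.0874%) higher at an adjusted p under 0.05. The BT483 tamoxifen effect in it rests on 1 library a side. These libraries are assumed to vary like the 2 NLK siRNA libraries of each line and the 2 tamoxifen pairs of T47D-TamR. Those are different siRNAs and different arms, so the borrowed spread is not one between replicates. "Rose" and "fell" below refer to this test, its log2 fold change and standard error (SE), and the percentages of the siCtrl level carry the counting interval. The position of the tamoxifen library among the 4 BT483 libraries is given below as a description, since the same libraries enter the fit. It lay below all 3 BT483 libraries without tamoxifen for 30.4% of the 16194 genes and above all 3 for 29%. Leaving out T47D-TamR siCtrl, siCtrl with tamoxifen, DMSO or DMSO with tamoxifen reduced the calls to 3 higher and 187 to 205 lower. Leaving out either T47D-TamR siNLK library raised the higher calls to 49, and leaving out BT483 siNLK type 2 raised them to 34.

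**Figure D1:**
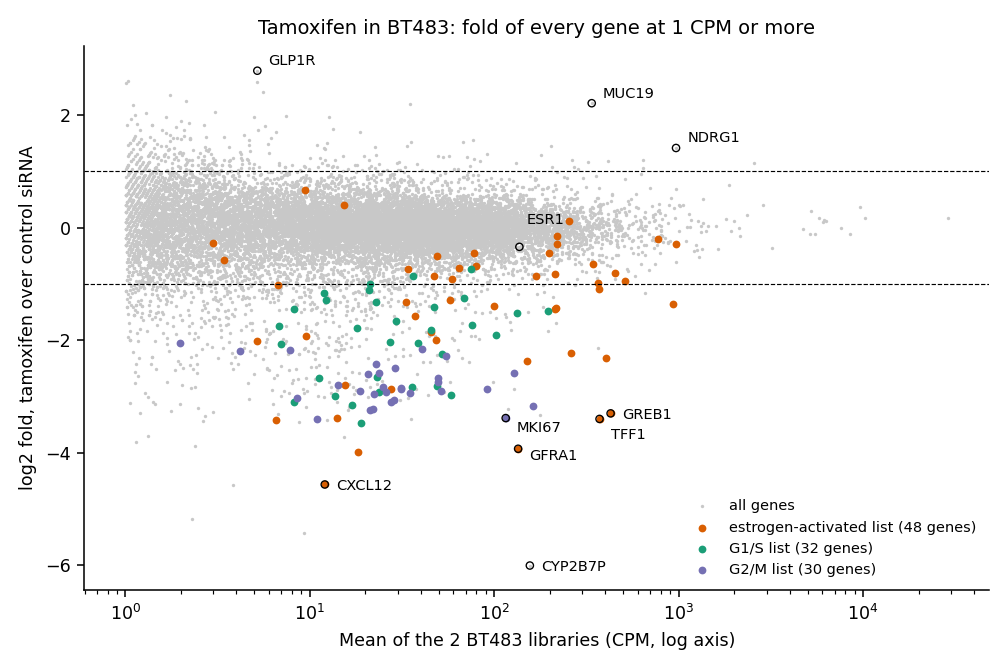
Each point is a gene, with its mean over the BT483 pair in CPM on a log axis and its log2 fold, tamoxifen over control siRNA, on the vertical axis; dashed lines mark 2-fold and open circles the genes named on the plot. The G1/S and G2/M genes lie below 0 without exception, the estrogen-activated genes reach from 0.66 for KRT13 to -4.56 for CXCL12, and past 2-fold the higher genes, 301, are fewer than the lower ones, 743.

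Genes that estradiol activates in breast cancer cells were lower with tamoxifen as a group, while the receptor itself changed little. ESR1, which encodes the receptor, was at 121 CPM with tamoxifen and 153 CPM with siCtrl, 78.9% of control with a 95% interval of 75.0% to 83.1%, and was not called (edgeR adjusted p = 0.888). Of 48 estrogen-activated genes, 25 were 2-fold lower and 0 were 2-fold higher, with a median log2 ratio of -1.05 against 0.0049 for all genes. The edgeR test called 19 of the 48 lower and 0 higher, and the tamoxifen library lay below all 3 libraries without the drug for 41 of them.

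GREB1, a cofactor of the estrogen receptor, had 78.7 CPM with tamoxifen against 776 CPM with siCtrl, and 561 and 609 CPM with the NLK siRNAs. It fell to 10.1% of the siCtrl level, with an interval of 9.68% to 10.6% (log2 fold change -3.30, SE 0.25, edgeR adjusted p = 2.26e-05). TFF1, a secreted trefoil peptide that serves as the textbook estrogen target, had 64.4 CPM with tamoxifen against 680 CPM with siCtrl and fell to 9.47% (log2 fold change -3.40, SE 0.33, edgeR adjusted p = 0.000828). Its 2 other libraries, with the NLK siRNAs, stood at 468 and 711 CPM, so the tamoxifen library is the low one. PGR, the progesterone receptor, had 1.04 CPM with tamoxifen against 12.1 CPM with siCtrl (log2 fold change -3.52, SE 0.70, edgeR adjusted p = 0.0434). PGR lost its call in 9 of 14 alternative fits, and at this low level its log2 fold was -1.40 in the deposited normalized table.

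The estrogen-activated list also holds ligands and receptors. CXCL12, the chemokine that binds CXCR4 and ACKR3, had 0.895 CPM with tamoxifen against 23.2 CPM with siCtrl (log2 fold change -4.69, SE 0.59, edgeR adjusted p = 0.00122). GFRA1, a co-receptor of RET for glial-derived neurotrophic factor, had 16.5 CPM against 253 CPM and fell to 6.53% of siCtrl (edgeR adjusted p = 0.000537). RET, its signalling partner, was at 2.01 CPM with tamoxifen and 8.37 CPM with siCtrl and was not called (edgeR adjusted p = 0.0957). AREG, an EGFR ligand, fell to 48.5 CPM with tamoxifen, against 251 CPM with siCtrl and 229 and 251 CPM with the NLK siRNAs (log2 fold change -2.37, SE 0.22, edgeR adjusted p = 0.000115). NPY1R, a neuropeptide Y receptor, lost the most CPM of the genes past 2-fold, with 525 CPM with tamoxifen against 1338 CPM with siCtrl (edgeR adjusted p = 0.0156). SUSD3, a membrane protein, fell to 2.09 CPM against 34.5 CPM, and IGFBP4, which binds insulin-like growth factors, fell to 91.6 CPM against 430 CPM (edgeR adjusted p = 0.000115 and 0.000509).

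MYC and CCND1, the receptor targets closest to the cell cycle, both fell. MYC had 19.6 CPM with tamoxifen against 70.9 CPM with siCtrl, and 64.8 and 50.7 CPM with the NLK siRNAs (log2 fold change -1.85, SE 0.29, edgeR adjusted p = 0.00321). CCND1, cyclin D1, had 237 CPM with tamoxifen against 501 CPM with siCtrl (log2 fold change -1.08, SE 0.21, edgeR adjusted p = 0.0173), and lost its call in 5 of 15 alternative fits. Of the 48 estrogen-activated genes 3 lay above siCtrl, and 0 of the 3 were called. KRT13 was at 11.5 CPM with tamoxifen and 7.24 CPM with siCtrl, BCL2 at 17.5 and 13.2 CPM, tamoxifen first, and ABCA3 was the third.

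The 5 genes listed as lowered by estradiol were all higher with tamoxifen, by 0.40 to 0.76 on the log2 scale, and 0 were called. Over all genes, 8193 of 16194 were higher. BMF, a pro-apoptotic BH3-only protein, was at 47.5 CPM with tamoxifen and 28.0 CPM with siCtrl. BIK, of the same class, was at 32.6 and 21.6 CPM, tamoxifen first. The tamoxifen library lay above all 3 libraries without tamoxifen for 4 of the 5 genes. The rise was not particular to BT483. In T47D-TamR all 5 were also higher with tamoxifen, by 0.26 to 0.74 in the siCtrl pair and 0.25 to 0.58 in the DMSO pair.

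The strongest change by p-value was in a cytochrome P450 pseudogene. CYP2B7P, at chr19:40924219-40950660 (GRCh38, plus strand, GENCODE 29 annotation), had 4.70 CPM with tamoxifen against 307 CPM with siCtrl, and 215 and 275 CPM with the NLK siRNAs. It fell to 1.53% of siCtrl, with an interval of 1.27% to 1.82% (log2 fold change -6.03, SE 0.31, edgeR adjusted p = 2.61e-06). Reads shared with near-identical genes could be assigned to it, so the count is uncertain at the level of the gene copy. ASIC2, an acid-sensing ion channel, had the lowest fold of the protein-coding genes named, with 0.336 CPM with tamoxifen against 18.2 CPM with siCtrl (edgeR adjusted p = 0.0389, not called by DESeq2 at an adjusted p of 1).

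**Figure D2:**
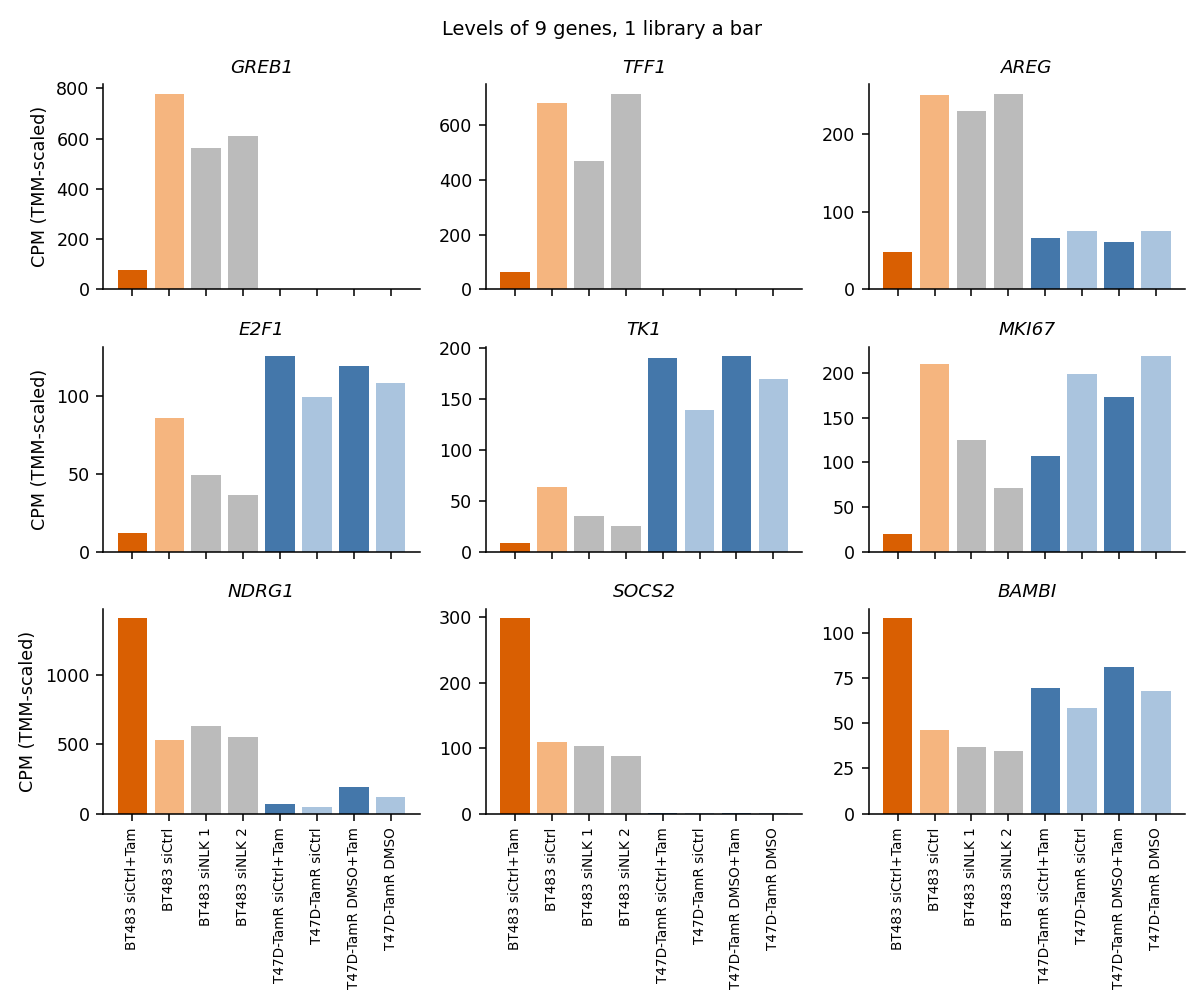
Bars give TMM-scaled CPM on linear axes from 0, with 1 bar for each of 8 libraries of both lines; siNLK 1 and 2 are the NLK siRNA types in BT483. In BT483 the tamoxifen bar is the lowest of the 4 for GREB1, TFF1, AREG, E2F1, TK1 and MKI67 and the highest for NDRG1, SOCS2 and BAMBI.

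Genes of DNA replication and of mitosis were lower with tamoxifen almost throughout. Of 32 genes of G1/S and DNA replication, 30 were 2-fold lower and 25 fell in the edgeR test, with a median log2 ratio of -1.80. Of 30 genes of G2 and mitosis, all 30 were 2-fold lower and 23 fell, with a median of -2.85. No member of either list was higher. The tamoxifen library lay below all 3 libraries without tamoxifen for 31 of 32 and 30 of 30 genes. The siCtrl library was itself the highest of the 4 BT483 libraries for E2F1, TK1, MKI67 and BIRC5, and the NLK siRNA libraries stood between it and the tamoxifen library. In bulk RNA, fewer cycling cells and less of these RNAs per cycling cell cannot be told apart.

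E2F1, the factor that transcribes many replication genes, had 12.2 CPM with tamoxifen against 85.5 CPM with siCtrl, and 49.1 and 36.4 CPM with the NLK siRNAs (log2 fold change -2.81, SE 0.27, edgeR adjusted p = 0.000115). TK1, thymidine kinase, had 8.73 CPM with tamoxifen against 62.9 CPM with siCtrl, and 35.1 and 25.3 CPM with the NLK siRNAs (log2 fold change -2.85, SE 0.26, edgeR adjusted p = 0.000115). The helicase subunits MCM2 to MCM7 all fell. MCM4 was the most abundant of them, at 103 CPM with tamoxifen and 287 CPM with siCtrl, and MCM2 the most changed, at 18.0 and 85.7 CPM. MCM10, which helps to fire replication origins, fell furthest in the list, to 3.06 CPM with tamoxifen against 34.6 CPM with siCtrl (edgeR adjusted p = 0.0141), and lost its call in 4 of 15 alternative fits. UNG, a uracil glycosylase of base excision repair, and SLBP, which binds histone mRNA, were the least changed, with log2 ratios of -0.73 and -0.85, and neither was called.

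Among the mitotic genes MKI67, the antigen counted in tumour pathology as Ki-67, had 20.1 CPM with tamoxifen against 211 CPM with siCtrl, and 125 and 71.4 CPM with the NLK siRNAs. It fell to 9.54% of siCtrl, with an interval of 8.70% to 10.4% (log2 fold change -3.39, SE 0.39, edgeR adjusted p = 0.00323). BIRC5, survivin, had 7.98 CPM with tamoxifen against 62.0 CPM with siCtrl, and 35.5 and 24.7 CPM with the NLK siRNAs (log2 fold change -2.96, SE 0.28, edgeR adjusted p = 0.000115). AURKB, a kinase of the chromosomal passenger complex, fell to 1.83 CPM with tamoxifen against 20.0 CPM with siCtrl (edgeR adjusted p = 0.0211). CDC20, an activator of the anaphase-promoting complex, was at 4.21 and 39.9 CPM, tamoxifen first, and missed the threshold (edgeR adjusted p = 0.0844). CDK1 was at 12.7 CPM with tamoxifen and 85.9 CPM with siCtrl and also missed it. These misses come with folds as large as those of the genes that passed.

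Outside the lists, KIF18B, a kinesin of the mitotic spindle, fell to 6.04 CPM with tamoxifen against 64.3 CPM with siCtrl, and NEIL3, a DNA glycosylase, to 1.16 CPM with tamoxifen against 12.3 CPM with siCtrl (edgeR adjusted p = 0.000569 and 0.00073). Of the 336 genes called lower, 48 belonged to the G1/S and G2/M lists, 19 to the estrogen-activated list and 261 to none of the 38 lists. The processed pseudogene AC112777.1 on chromosome 12 had 2.05 CPM with tamoxifen against 22.7 CPM with siCtrl (edgeR adjusted p = 0.000115), and reads from a parent gene could be counted there.

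The promoters of both groups of cell cycle genes are shown because the lists fell together and differ in the element they carry. RefSeq promoters (GRCh38.p14, 250 bases before to 50 bases after the transcription start) were matched for 10594 of the 16194 genes. They were searched on both strands for E2F motifs (TTTGGCGC, TTTCGCGC, TTTCCCGC and TTTGGCGG), the CHR element TTTGAA, the CCAAT box and the palindromic estrogen response element. The 250 bases upstream of the start follow for 2 genes of each list, 5′ to 3′ on the gene's own strand, with the motif in capitals. UHRF1, which reads hemimethylated DNA after replication, lies on the plus strand and its window is chr19:4909251-4909500; CDC45, of the replicative helicase, lies on the plus strand with the window chr22:19479670-19479919. MKI67 lies on the minus strand with the window chr10:128126424-128126673, and KIF4A, a chromosome-binding kinesin, on the plus strand with the window chrX:70289854-70290103.
UHRF1: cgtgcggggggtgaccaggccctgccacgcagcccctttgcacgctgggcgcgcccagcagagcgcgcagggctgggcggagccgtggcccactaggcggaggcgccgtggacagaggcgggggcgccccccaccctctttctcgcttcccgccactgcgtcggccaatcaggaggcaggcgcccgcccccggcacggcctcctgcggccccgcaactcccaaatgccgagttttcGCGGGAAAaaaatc
CDC45: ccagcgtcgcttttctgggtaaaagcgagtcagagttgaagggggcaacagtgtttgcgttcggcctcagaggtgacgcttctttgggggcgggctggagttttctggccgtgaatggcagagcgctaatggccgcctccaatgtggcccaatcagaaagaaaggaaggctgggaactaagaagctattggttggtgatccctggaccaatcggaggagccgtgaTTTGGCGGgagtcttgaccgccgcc
MKI67: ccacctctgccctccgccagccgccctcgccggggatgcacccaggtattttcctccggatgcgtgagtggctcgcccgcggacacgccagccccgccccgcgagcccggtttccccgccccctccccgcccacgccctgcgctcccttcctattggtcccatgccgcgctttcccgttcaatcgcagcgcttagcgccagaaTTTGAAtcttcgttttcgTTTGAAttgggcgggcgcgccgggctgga
KIF4A: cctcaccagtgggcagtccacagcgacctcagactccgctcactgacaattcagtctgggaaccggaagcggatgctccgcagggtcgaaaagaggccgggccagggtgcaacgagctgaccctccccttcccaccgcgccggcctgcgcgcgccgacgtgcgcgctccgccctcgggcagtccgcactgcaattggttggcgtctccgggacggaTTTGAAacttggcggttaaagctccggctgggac

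The E2F match lies 14 bases before the start in UHRF1, where it reads TTTCCCGC on the opposite strand, and 25 bases before it in CDC45. The CHR match lies 34 bases before the start in KIF4A, and MKI67 holds 2, at 47 and 29 bases. All 4 genes fell: UHRF1 was at 3.32 CPM with tamoxifen and 30.3 CPM with siCtrl, CDC45 at 1.64 and 14.8 CPM, and KIF4A at 3.99 and 38.5 CPM. These 4 are among the most lowered members of their lists, and each holds its list's motif. They serve as examples and do not bear on a link between motif and fall. An E2F motif was present in 19 of 28 G1/S promoters (67.9%) and 3 of 25 G2/M promoters (12%), against 5.56% of all promoters. The CHR element showed the opposite split, in 1 of 28 G1/S promoters (3.57%) and 16 of 25 G2/M promoters (64%), against 9.17% of all. A CCAAT box was in 60.7% of G1/S and 84% of G2/M promoters, against 36.3% of all. These shares are properties of the lists and do not measure the response to tamoxifen.

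Over the 251 matched promoters of genes called lower, 18.7% held an E2F motif and 29.5% a CHR element. The 198 of them outside the G1/S, G2/M and estrogen-activated lists held the E2F motif in 13.6% and the CHR element in 30.3%. By the 2-fold rule, the 138 promoters of higher genes had shares of 1.45% for E2F and 8.70% for CHR. The 495 promoters of 2-fold lower genes had 12.9% and 23.6%. The estrogen-activated promoters held E2F in 1 of 36 and CHR in 7 of 36, and the full estrogen response element was in 0 of 36, against 2 of 10594 promoters. A match is a run of letters and not a bound site, and the receptor's sites often lie outside so short a window.

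**Figure D3:**
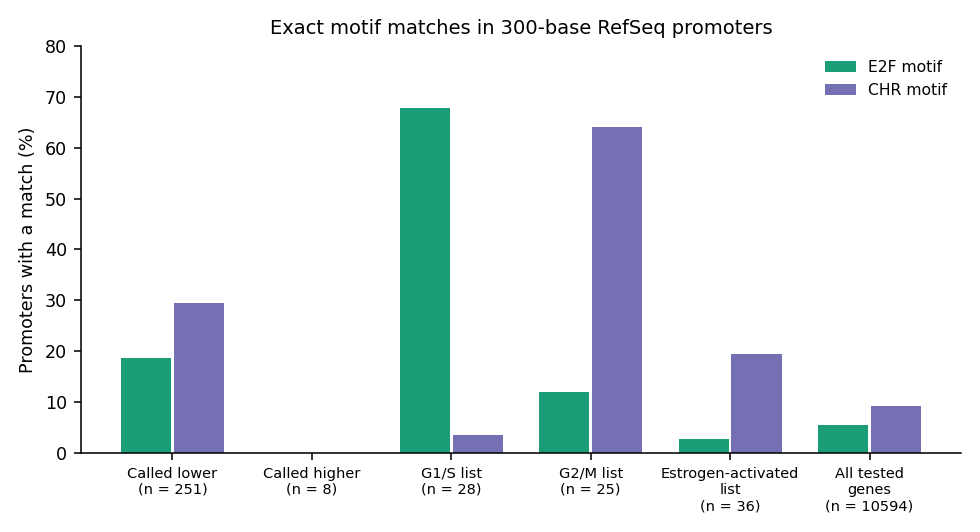
Bars give the percentage of 300-base RefSeq promoters with at least 1 exact match to an E2F motif or the CHR element, for the genes called lower or higher with tamoxifen, 3 gene lists and all tested genes, with the number of promoters under each name. E2F matches stand out in the G1/S list (67.9%) and CHR matches in the G2/M list (64%). The 8 matched promoters of genes called higher held 0 of either, but are too few to tell from the 5.56% and 9.17% of all promoters.

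Of 22 G1 cyclins, CDKs, inhibitors and pocket proteins, 9 were 2-fold lower, 6 fell in the test and 0 rose, with a median log2 ratio of -0.43. This list overlaps those above: E2F1 and E2F2 are also in the G1/S list and CCND1 in the estrogen-activated list. E2F2 fell to 2.98 CPM with tamoxifen against 19.5 CPM with siCtrl, and CCNE2, cyclin E2, to 8.05 against 28.0 CPM (edgeR adjusted p = 0.00101 and 0.0379). CCNE2 lost its call in 7 of 15 alternative fits. The CDK inhibitors lay on both sides of their control level, and CDKN2A was the 1 called. CDKN1A (p21) was at 478 CPM with tamoxifen and 473 CPM with siCtrl, CDKN1B (p27) at 149 and 136 CPM, and CDKN2B (p15) at 12.5 and 9.17 CPM. CDKN2C (p18) was at 3.43 CPM with tamoxifen and 15.4 CPM with siCtrl without being called (edgeR adjusted p = 0.267), and CDKN2A fell to 2.46 CPM against 6.51 CPM (edgeR adjusted p = 0.0308). Replication-dependent histone genes were split, with a median log2 ratio of 0.08 over 10 genes. Their mRNAs end without a poly(A) tail, and an mRNA selection samples them poorly.

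The genes that rose were few and of smaller fold, and 3 of the 21 belonged to a list. Their log2 ratios ran from 0.88 to 2.79 with a median of 1.30, against a median of -2.15 for the genes that fell. RefSeq gives a protein for 15 of the 21. NDRG1, a stress- and differentiation-associated protein that hypoxia and iron loss also raise, had 1408 CPM with tamoxifen against 527 CPM with siCtrl, and 633 and 553 CPM with the NLK siRNAs. It rose to 267% of siCtrl, with an interval of 261% to 273% (log2 fold change 1.42, SE 0.21, edgeR adjusted p = 0.00224). NDRG1 and CMAHP, the human pseudogene of the sialic acid hydroxylase CMAH, were the 2 genes called higher in all 9 fits that leave out 1 library. CMAHP was at 57.3 CPM with tamoxifen and 12.4 CPM with siCtrl (edgeR adjusted p = 0.0149).

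CLU, the secreted chaperone clusterin, rose to 869 CPM with tamoxifen, against 416 CPM with siCtrl and 497 and 515 CPM with the NLK siRNAs (log2 fold change 1.06, SE 0.22, edgeR adjusted p = 0.0251). BAMBI, a decoy receptor that dampens TGF-beta and BMP signalling, rose to 108 CPM against 46.4 CPM with siCtrl (log2 fold change 1.22, SE 0.24, edgeR adjusted p = 0.0150). SOCS2, an inhibitor of growth hormone and prolactin signalling, had 298 CPM with tamoxifen against 109 CPM with siCtrl, and 104 and 87.2 CPM with the NLK siRNAs (edgeR adjusted p = 0.0396). SOCS2-AS1, which overlaps SOCS2 on the opposite strand of chromosome 12, was at 114 CPM with tamoxifen and 38.6 CPM with siCtrl. The strand setting of the counting is not given in the sources used here, so their reads cannot be told apart with certainty.

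ENC1, an actin-binding Kelch protein, rose to 367 CPM with tamoxifen against 160 CPM with siCtrl, and BCAS1, a gene amplified in some breast cancers, to 129 against 52.5 CPM (edgeR adjusted p = 0.0196 and 0.0229). REEP5, which shapes the endoplasmic reticulum, rose to 820 CPM against 423 CPM, and SHISA2, a protein of the endoplasmic reticulum that retains Wnt and FGF receptors, to 572 against 251 CPM (edgeR adjusted p = 0.0273 and 0.0497). The tetraspanin TSPAN1, the channel-like TMC5, the phosphatase INPP5J and the enamel-associated TUFT1 also rose, to between 184% and 242% of siCtrl. GLP1R, the receptor of glucagon-like peptide 1, had the highest fold of the named genes at a low level, with 9.14 CPM with tamoxifen against 1.24 CPM with siCtrl (log2 fold change 2.87, SE 0.61, edgeR adjusted p = 0.0345). RIIAD1 was at 8.99 and 1.41 CPM and the testis Na,K-ATPase subunit ATP1A4 at 20.2 and 5.09 CPM, tamoxifen first. Leaving out any of the 4 tamoxifen-pair libraries of T47D-TamR ended the calls of 19 of the 21 genes, all but NDRG1 and CMAHP, and DESeq2 did not call GLP1R, RIIAD1 or ATP1A4.

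**Figure D4:**
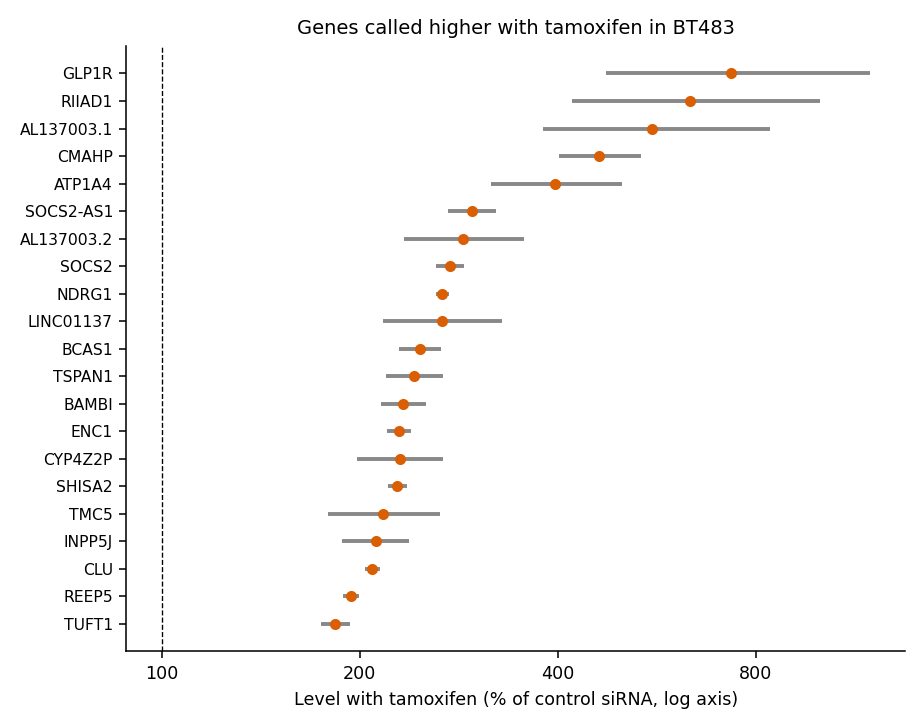
Points give the level with tamoxifen as a percentage of the control siRNA level in BT483, on a log axis, for the 21 genes called higher, and bars the exact 95% counting interval. The values reach from 184% for TUFT1 to 734% for GLP1R, with the narrowest intervals for the abundant NDRG1, CLU and REEP5.

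Some large gains were not called. MUC19, a gel-forming mucin, had 555 CPM with tamoxifen against 120 CPM with siCtrl, and 150 and 156 CPM with the NLK siRNAs, with an adjusted p just past the threshold (edgeR adjusted p = 0.0506). ABCC5, an efflux transporter of cyclic nucleotides, was at 897 and 391 CPM, tamoxifen first, with 610 CPM in BT483 siNLK type 1 (edgeR adjusted p = 0.122). MT-ND3, a mitochondrially encoded subunit of complex I, was at 3539 CPM with tamoxifen and 1605 CPM with siCtrl, but at 2977 CPM with NLK siRNA type 2, and was not called (edgeR adjusted p = 0.906). Of the secretory genes, PIP was at 3.69 CPM with tamoxifen and 1.41 CPM with siCtrl. Short genes carried more of the 2-fold gains. Length here is a relative value worked out from the counts and the deposited TPM, not an annotated length. With genes split into 5 equal bins of it, the shortest bin held 124 of the 301 and the longest 36. The 2-fold losses numbered 134 and 109 there. After a loess trend on this relative length was taken out, the lower share of 2-fold genes was 73.6%.

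Luminal identity genes stayed near their control level. Of 21 genes, 0 were past 2-fold and 0 were called, with a median log2 ratio of 0.09. GATA3, a luminal transcription factor, was at 1461 CPM with tamoxifen and 1438 CPM with siCtrl, and FOXA1, which opens chromatin for the receptor, at 470 and 485 CPM. ELF5, the factor of the alveolar lineage, was the member furthest from control, at 44.3 CPM with tamoxifen and 24.9 CPM with siCtrl (edgeR adjusted p = 0.224). NLK, the kinase targeted in the other BT483 libraries, was at 34.4 CPM with tamoxifen and 30.0 CPM with siCtrl.

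Growth factor and hormone pathways held isolated changes. Of 24 ERBB, IGF and FGF pathway genes, 3 fell (GFRA1, AREG and IGFBP4) and 0 rose. IGFBP3 was at 27.7 CPM with tamoxifen, 185% of siCtrl, and was not called. Of 19 ERK feedback genes, 3 fell, MYC, CCND1 and the ETS factor ETV4, which was at 4.51 CPM with tamoxifen and 16.7 CPM with siCtrl (edgeR adjusted p = 0.0218) and lost its call in 5 of 15. FKBP5, a co-chaperone of steroid receptors that androgens and glucocorticoids also raise, fell to 6.19 CPM against 23.7 CPM with siCtrl (log2 fold change -1.93, SE 0.23, edgeR adjusted p = 0.000509). HEY2, a Notch effector, fell to 0.410 CPM with tamoxifen against 4.53 CPM with siCtrl (edgeR adjusted p = 0.0303) and lost its call in 6 of 14 alternative fits, DESeq2 among them. Its relative HEY1 was at 10.0 and 4.70 CPM, tamoxifen first. NOTCH1 was at 82.1 CPM with tamoxifen and 186 CPM with siCtrl and was not called. Of 15 TGF-beta and BMP genes 1 rose (BAMBI), while the ligand BMP4 was at 16.9 and 7.30 CPM and ID3 at 37.7 and 21.4 CPM without a call.

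Metabolic and biosynthetic lists shifted by small amounts. Of 30 nucleolar ribosome biogenesis genes 29 were lower, with a median log2 ratio of -0.33. In that list 1 gene was called, MYC itself, and the tamoxifen library lay below all 3 libraries without tamoxifen for 28. NCL, nucleolin, was at 301 CPM with tamoxifen and 462 CPM with siCtrl. Of 35 cytosolic ribosomal proteins 31 were lower, with a median of -0.24 and 0 called. Of 29 nuclear genes of oxidative phosphorylation 5 were 1.5-fold higher, with a median of 0.11 and 0 called. The largest of these was NDUFA1, at 62.6 CPM with tamoxifen and 31.5 CPM with siCtrl, but at 59.0 CPM with NLK siRNA type 2. Cholesterol genes had a median of -0.14 with 0 of 24 called. Of 19 fatty acid genes FADS2, a desaturase, fell to 5.00 CPM against 16.6 CPM (edgeR adjusted p = 0.00829). Of 8 liver X receptor targets 7 were higher, with a median of 0.38 and 0 called.

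Stress and immune lists held few called genes. Of 30 amino acid stress genes under ATF4, 2 fell and 0 rose. STC2, a secreted glycoprotein that estradiol also raises, fell to 134 CPM with tamoxifen against 671 CPM with siCtrl (log2 fold change -2.32, SE 0.33, edgeR adjusted p = 0.00425). Of 30 interferon-stimulated genes 24 were lower, 4 of them past 2-fold, with a median of -0.31 and 0 called. The tamoxifen library lay below all 3 libraries without tamoxifen for 24 of these 30 genes and above all 3 for 0. HERC6 was at 15.1 CPM with tamoxifen against 35.6 CPM with siCtrl, and at 64.9 and 115 CPM with the NLK siRNAs, so that the libraries without tamoxifen differed by more among themselves. Of 27 p53 targets 0 were called, and TP53I3 was at 2.87 and 1.07 CPM, tamoxifen first (edgeR adjusted p = 0.0536). MHC class I, NF-kB, heat shock, lysosome, aryl hydrocarbon receptor and BCL2 family lists held 0 called genes, with medians between -0.10 and 0.19. Of 25 hypoxia and glycolysis genes 18 were lower, with a median of -0.25, and the 1 called gene, NDRG1, was higher. OSGIN1, 1 of 17 NRF2 targets, fell to 11.5 CPM with tamoxifen against 32.7 CPM with siCtrl (edgeR adjusted p = 0.0197) and lost its call in 7 of 15 alternative fits.

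The tamoxifen effect on cell cycle genes was lower in BT483 than in T47D-TamR. The series holds no sensitive T47D library, so cell line and resistance cannot be told apart. In T47D-TamR the siCtrl pair held 93 genes 2-fold higher (0.601%) and 384 lower (2.48%), and the DMSO pair 30 higher (0.194%) and 59 lower (0.382%). In edgeR's test over both pairs 53 genes fell (0.221%) and 0 rose (0%) in T47D-TamR, with 1444 genes of either direction at an unadjusted p under 0.05. The test of the difference between lines called 165 genes (0.687%) with a lower tamoxifen effect in BT483 than in T47D-TamR and 1 (0.00416%) with a higher one. The difference was called for 19 of the 32 G1/S genes and 16 of the 30 G2/M genes. The G1/S median was -1.80 in BT483, against 0.15 in the siCtrl pair and 0.09 in the DMSO pair of T47D-TamR. The G2/M median was -2.85 in BT483, against -0.13 and -0.03. The difference calls rest on the T47D-TamR tamoxifen pairs: they numbered 0 without siCtrl, siCtrl with tamoxifen or DMSO with tamoxifen of that line and 9 without its DMSO library.

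E2F1 stood at 125 CPM with tamoxifen against 99.5 CPM with siCtrl in T47D-TamR, and at 119 against 108 CPM in the DMSO pair, above every BT483 library. The difference between lines was -3.05 on the log2 scale (SE 0.32, edgeR adjusted p = 0.00072). For TK1 it was -3.16 (SE 0.31, edgeR adjusted p = 0.00072), with 190 against 139 CPM and 191 against 169 CPM in the T47D-TamR pairs, tamoxifen first. MKI67 was lower with tamoxifen in both T47D-TamR pairs, at 107 against 198 CPM and 173 against 219 CPM. Its difference between lines was -2.78 (SE 0.46, edgeR adjusted p = 0.0312).

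The estrogen-activated genes could be compared in part, because some of them lay under 1 CPM in T47D-TamR. In that line 13 of the 48 lay under 1 CPM in at least 1 pair, as did 2400 of all 16194 genes. Genes were taken by their level in the BT483 pair alone, so the number expressed in T47D-TamR could only be equal or lower. GREB1 was at 0.116 and 0.0766 CPM with tamoxifen against 0.277 and 0.0400 CPM without it there, and TFF1, GFRA1, CXCL12, SUSD3 and PGR were also under 1 CPM. ESR1 was expressed, at 24.9 and 22.4 CPM with tamoxifen against 24.7 and 22.1 CPM without it. Over the 35 genes at 1 CPM or more in both lines, the median was -0.91 in BT483, against 0.21 in the siCtrl pair and -0.02 in the DMSO pair of T47D-TamR. The difference was called for 9 of the 48 genes, among them AREG (-2.12, edgeR adjusted p = 0.00137), MYC (-2.02, edgeR adjusted p = 0.0134) and CCND1 (-1.29, edgeR adjusted p = 0.0321). Of the 21 genes that rose in BT483, 15 were expressed at 1 CPM or more in T47D-TamR. Their median there was 0.13 in the siCtrl pair and 0.08 in the DMSO pair. Over all genes at 1 CPM or more in both lines it was 0.09 and 0.05. Their BT483 median was 1.20, but they were chosen by their rise in BT483, so this contrast is no test of the lines. The only higher difference called was for the antisense RNA AL137003.1 (edgeR adjusted p = 0.0463), and NDRG1 was higher with tamoxifen in both T47D-TamR pairs, at 66.1 against 46.8 CPM and 190 against 123 CPM.

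**Figure D5:**
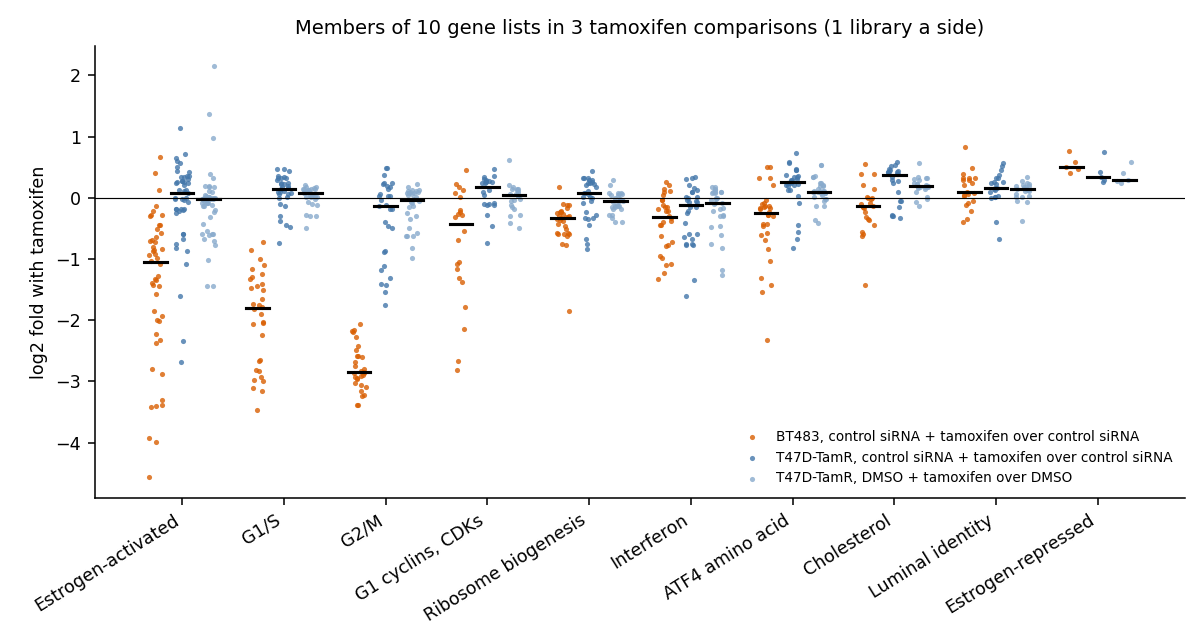
Points give each list member's log2 fold with tamoxifen in the BT483 pair and in the siCtrl and DMSO pairs of T47D-TamR, with black bars at the medians. The BT483 medians of -1.05, -1.80 and -2.85 for the estrogen-activated, G1/S and G2/M lists lie apart from the T47D-TamR medians, which stay between -0.13 and 0.15; 13 of the 48 estrogen-activated genes are under 1 CPM in at least 1 T47D-TamR pair.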

How the data were processed

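RNA was taken from BT483 and T47D-TamR cells and sequenced as paired reads from stranded mRNA libraries, per the labels' protocols, which name both RNAzol and a Qiagen RNeasy kit for the extraction. The authors deposited whole-number counts per gene for each of the 11 libraries, made on GRCh38 per the submitters' processing notes. Which aligner, gene annotation and counting strand were used is not given in the sources used here. Deposited alongside were log2(TPM + 1) values per library and a log2 TPM table of the series, normalized by a method no header or label records; both were used as alternatives.

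Counts were scaled by TMM to CPM, and log2 ratios used a prior count of 2. With 1 library a side the ratio has no replicate check, and its exact binomial (Clopper-Pearson) 95% interval covers counting error only. By library totals without TMM factors, the floor of 3 counts equals 0.119 CPM in the tamoxifen library and 0.178 CPM in the siCtrl library. edgeR 4.0.16 (R 4.3.3; quasi-likelihood F test, filterByExpr, robust) was fitted to all 11 libraries with a term for each line's siRNA arm and the T47D-TamR drug arm, knockdown and tamoxifen per line, and VX-702, a p38 inhibitor, leaving 3 residual degrees of freedom. The residual spread comes from the difference between the 2 NLK siRNAs in each line and between the 2 tamoxifen pairs of T47D-TamR. The p-values are set against that spread, which mixes differences between siRNAs and arms with variation between libraries. The labels do not say whether libraries came from independent cultures, so the variation between libraries may be technical. DESeq2 1.42.0 and limma 3.58.1 were alternatives. The fit was also run on counts simulated with its own dispersion, which cannot test whether the borrowed spread suits the BT483 pair.

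Genes were named by rule: the 14 highest and 14 lowest protein-coding folds at 5 CPM or more, the 6 largest gains and losses in CPM, the 6 smallest p-values, the 4 smallest for the difference between lines, and up to 4 members each way of each of 38 lists. ESR1, PGR, GREB1, TFF1, NLK, MYC and CCND1 were always named. Some genes that the rule took in are not reported here. The other genes named from the lists and among the called genes were chosen after their values were seen. The comparison and the lists were chosen with earlier results of these data known, and the comparison with the NLK siRNA libraries and the medians over genes expressed in both lines were added after the values were seen. Promoter sequences are from RefSeq, GRCh38.p14, and motif searches were exact. Gene coordinates are from GENCODE 29.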

Additional observations from a re-analysis of the deposited data

Results flagged for a closer look

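For 27 genes described here the tamoxifen effect differed between the lines in edgeR's test of the difference (BT483 minus T47D-TamR, on the log2 scale, Benjamini-Hochberg adjusted). In 26 of the 27 the BT483 effect was the lower one. The replication and mitosis genes among them were KIF18B (-3.50, adjusted p = 0.00276), MKI67 (-2.78, 0.0312), NEIL3 (-3.43, 0.00363), TK1 (-3.16, 0.00072), BIRC5 (-3.12, 0.00072), E2F1 (-3.05, 0.00072), E2F2 (-3.05, 0.00301), MYBL1 (-2.25, 0.00331), UHRF1 (-3.43, 0.00298), CDC45 (-3.29, 0.00072) and KIF4A (-3.32, 0.00266). The helicase subunits had -2.48 for MCM2, -1.94 for MCM3, -1.67 for MCM4, -1.88 for MCM5, -2.14 for MCM6 and -1.70 for MCM7, with adjusted p between 0.00151 and 0.0283. The pseudogene AC112777.1 had -3.64 (0.00072), and MYBL1 had -2.25 (0.00331). The receptor targets and growth regulators were AREG (-2.12, 0.00137), STC2 (-2.32, 0.0224), MYC (-2.02, 0.0134), CCND1 (-1.29, 0.0321), IGFBP4 (-2.37, 0.00331) and PDZK1 (-4.16, 0.0109), the last a scaffold protein of membrane transporters. FKBP5 had -1.88 (0.00363) and FADS2 -2.10 (0.0134). The antisense RNA AL137003.1 had the 1 higher effect in BT483 (2.62, 0.0463).

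In 15 of the 38 lists the median had one sign in BT483 and the other sign in both T47D-TamR pairs, and this difference was not tested. In 3 of the 15 all 3 medians were at least 0.1 from 0 on the log2 scale. The median over all genes was 0.0049 in BT483, against 0.08 in the siCtrl pair and 0.04 in the DMSO pair. The cholesterol list had -0.14 in BT483, against 0.37 in the siCtrl pair and 0.19 in the DMSO pair. The ATF4 amino acid list had -0.26, against 0.25 and 0.10. The hypoxia and glycolysis list had -0.25, against 0.27 and 0.12.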

How the results depend on the processing

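None of the named genes past a threshold changed sign under the alternatives run. The 301 higher and 743 lower genes at 2-fold became 94 and 460 at a mean of at least 5 CPM, 799 and 1464 with no filter on low counts, and 1125 and 1582 at 1.5-fold. The higher count was 121 in the deposited log2(TPM + 1) values and 191 in the deposited normalized table. The median of the mitochondrially encoded list was -0.16 in that table, against 0.14, and the other list medians stayed within the order-statistic interval of the median over their members. The 21 higher and 336 lower edgeR calls became 12 higher at 10 or more counts in every library, 97 and 573 with no filter, 39 higher with DESeq2, and 2 and 7 with limma on the normalized table, where 2607 genes had an unadjusted p under 0.05. With the 4 BT483 libraries alone they were 19 and 276. Leaving out 1 library gave 3 to 49 higher and 187 to 431 lower; 177 of the lower calls were made in all 9 such fits. For the difference between lines, the 1 higher and 165 lower calls became 0 higher at 10 or more counts, 115 and 387 with no filter, 25 and 305 with DESeq2 and 0 and 1 with limma, and 0 to 17 and 0 to 264 with 1 library left out. The causes were not tested. No paired analysis was possible because each condition has 1 library and the numbers in the labels count conditions, not replicates. Depth sets the limit for low genes, such as PGR and CXCL12 near 1 CPM with tamoxifen.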
